A study of Mus musculus with 12 samples.

Results

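The 46 genes described here carry out DNA replication and drive entry into S phase, the stage of the cell cycle in which the genome is copied. They were chosen by name as an S-phase list, with earlier results of these data known. Each was sought by symbol among the 54232 genes of the deposited count table. All 46 were present and had counts. They were followed in intestinal stem cells (ISCs) sorted from the small intestine of female mice at 2 months (young) and at 22 months (old), with 3 libraries of 1 mouse each for both ages in both isolations (12 libraries in 4 groups). SM6 libraries came from wild-type C57/Bl6 mice whose ISCs were gated on surface antigens. Lgr5-GFP libraries came from Lgr5-EGFP-IRES-CreERT mice (Lgr5-EGFP-IRES-CreERT2 in the study's methods). In these mice the Lgr5 locus drives a green fluorescent protein and an inducible recombinase. Strain and isolation change together, so that their effects cannot be told apart. The labels give the surface marker sort for every library, whereas a supplementary legend describes a sort of reporter mice on GFP, and the names SM6 and Lgr5-GFP are used here as the sample titles give them.

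Replication origins are licensed in G1 phase, when the origin recognition complex, Cdc6 and Cdt1 load the MCM helicase onto DNA. At S phase entry cyclin E and E2F factors switch on replication genes, Cdc45, the GINS complex and Mcm10 activate the loaded helicase, and polymerases with their clamp and clamp loader copy both strands. Crypt base ISCs divide throughout life, and replication genes are therefore expressed in these cells in young and old mice.

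Many S-phase genes carry E2F-type sites in their promoters, and the RefSeq promoter table for the build GRCm38.p6, which covers 250 bases before and 50 bases after each start site, held 38 of the 46 genes (no entry for Pole, Mcm4, Prim2, Rfc2, Gins2, Ccne2, Gins1 and Gins4). The E2F-type motif was searched as TTTCCCGC, TTTCGCGC, TTTGCCGC or TTTGGCGC on both strands, where matches may overlap. It was found for 14 of the 38 genes (36.8%) against 704 of all 27025 genes in the table (2.6%). The CCAAT box, searched as CCAAT on both strands, was found for 23 of the 38 genes (60.5%) and for 41.1% of all genes. A match of letters is a description and not a measured binding site. Stretches of 80 bases from 4 promoters are printed with both motifs in capitals, all upstream of the RefSeq start site. Mcm10 and Rrm2 are shown because they were the members that passed the test with age, and Mcm5 and Mcm6 because their upstream sequence holds overlapping E2F-type matches on opposite strands. The stretches lie at chr2:5012809-5012888 on the minus strand (Mcm10), chr12:24708157-24708236 on the plus strand (Rrm2), chr8:75109322-75109401 on the plus strand (Mcm5) and chr1:128359741-128359820 on the minus strand (Mcm6).
Mcm10: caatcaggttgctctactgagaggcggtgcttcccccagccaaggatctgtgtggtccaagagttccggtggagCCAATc
Rrm2: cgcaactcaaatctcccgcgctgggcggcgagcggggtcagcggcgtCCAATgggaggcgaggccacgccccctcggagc
Mcm5: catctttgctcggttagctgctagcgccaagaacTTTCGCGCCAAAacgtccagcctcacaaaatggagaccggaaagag
Mcm6: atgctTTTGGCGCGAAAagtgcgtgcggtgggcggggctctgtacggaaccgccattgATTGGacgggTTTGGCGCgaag
The promoters of Mcm10 and Rrm2 held no E2F-type match in the 300 bases searched, while each held a CCAAT box in the stretch shown. The Mcm6 stretch held 3 E2F-type matches and the Mcm5 stretch held 2.

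The 12 libraries held 970472 to 3815425 counts each (median 1424340). Levels are given as CPM, a count divided by its library's total after TMM scaling, which levels the libraries on the bulk of their genes. Each library held between 3305 and 8991 counts over the 46 genes together. A total of 32 members had at least 20 counts in every library, and 14 had fewer in some library (Orc1, Cdc6, Cdc45, Gins1, Gins2, Gins3, Prim2, Rfc4, Fen1, Chaf1a, Slbp, Ccne1, Ccne2 and E2f1). The stem cell markers Lgr5, Ascl2, Sox9, Olfm4 and Smoc2 had counts in all 12 libraries. Markers of other crypt cells were present too. The summed level of 17 stem cell markers was between 13850 and 17030 CPM in young and between 8886 and 10170 CPM in old SM6 libraries. In Lgr5-GFP libraries it was between 13500 and 15340 CPM in young and between 11620 and 13330 CPM in old mice. The 10 goblet cell markers summed to between 6363 and 10150 CPM in young and between 19590 and 20440 CPM in old SM6 libraries, and to between 6071 and 15660 CPM and between 3554 and 6122 CPM in young and old Lgr5-GFP libraries. The 14 Paneth cell markers ran from 13080 to 88380 CPM in young and from 54480 to 332100 CPM in old SM6 libraries, and from 57680 to 319400 CPM and from 22950 to 39170 CPM in young and old Lgr5-GFP libraries. The 14 enterocyte markers ran from 2091 to 2219 CPM in young and from 2773 to 9597 CPM in old SM6 libraries, and from 1940 to 3274 CPM and from 2217 to 12050 CPM in young and old Lgr5-GFP libraries. In SM6 ISCs edgeR called 4 of the 17 stem cell markers lower and 7 goblet, 2 Paneth, 5 enterocyte and 3 enteroendocrine markers higher in old mice, and in Lgr5-GFP ISCs it called 0 stem cell and 0 enteroendocrine markers and 1 goblet, 3 Paneth and 3 enterocyte markers, all lower. The 15 enteroendocrine cell markers summed to a mean of 1104 CPM in young and 2024 CPM in old SM6 libraries, and of 212 and 115 CPM in young and old Lgr5-GFP libraries. The 12 immune cell markers summed to between 27.5 and 35.2 CPM in young and between 18.4 and 23.4 CPM in old SM6 libraries, and to between 26.9 and 35.0 CPM and between 20.3 and 21.3 CPM in young and old Lgr5-GFP libraries, without overlap, and in 3 old libraries a single gene of the list held all of these counts. Of the 2 immune cell markers tested edgeR called 0 in either isolation or on average, and both were at an unadjusted p under 0.05 on average. Cd79a and Col3a1, which define B cells and connective tissue cells, were at 0 counts in all 12 libraries, and Cd3e and Ptprc did not exceed 3 and 6 counts. The share of counts taken by defensins, which Paneth cells secrete, was highest in SM6 old replicate 3 (23.1%) and Lgr5-GFP young replicate 1 (23.2%) and down to 1.26% elsewhere. The part of these markers in the results on replication genes was not tested. In sorted bulk samples, a smaller share of cells in S phase and less RNA per cell in S phase cannot be told apart.

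The first question was whether replication genes change with age within each isolation. The libraries were compared with the edgeR quasi-likelihood test, with Benjamini-Hochberg adjustment over all 13368 genes tested, and called genes are those whose adjusted p was under 0.05. All 46 members passed the filter on low values. In SM6 ISCs 1 of the 46 members was called, Mcm10, which fell with age, where 2.42% of all tested genes were called. In Lgr5-GFP ISCs 0 of the 46 were called, where 0.471% of all genes were. Averaged over both isolations 1 member was called, Rrm2, which fell, against 2.66% of all genes. At an unadjusted p under 0.05 there were 4 members in SM6 ISCs (8.7%, against 13.1% of all genes), 3 in Lgr5-GFP ISCs (6.52%, against 9.79%) and 6 on average (13%, against 12.8%). DESeq2 and limma voom also called 0 members in Lgr5-GFP ISCs. The shares of members called or at a low p were thus near or under those of all genes.

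**Figure D1:**
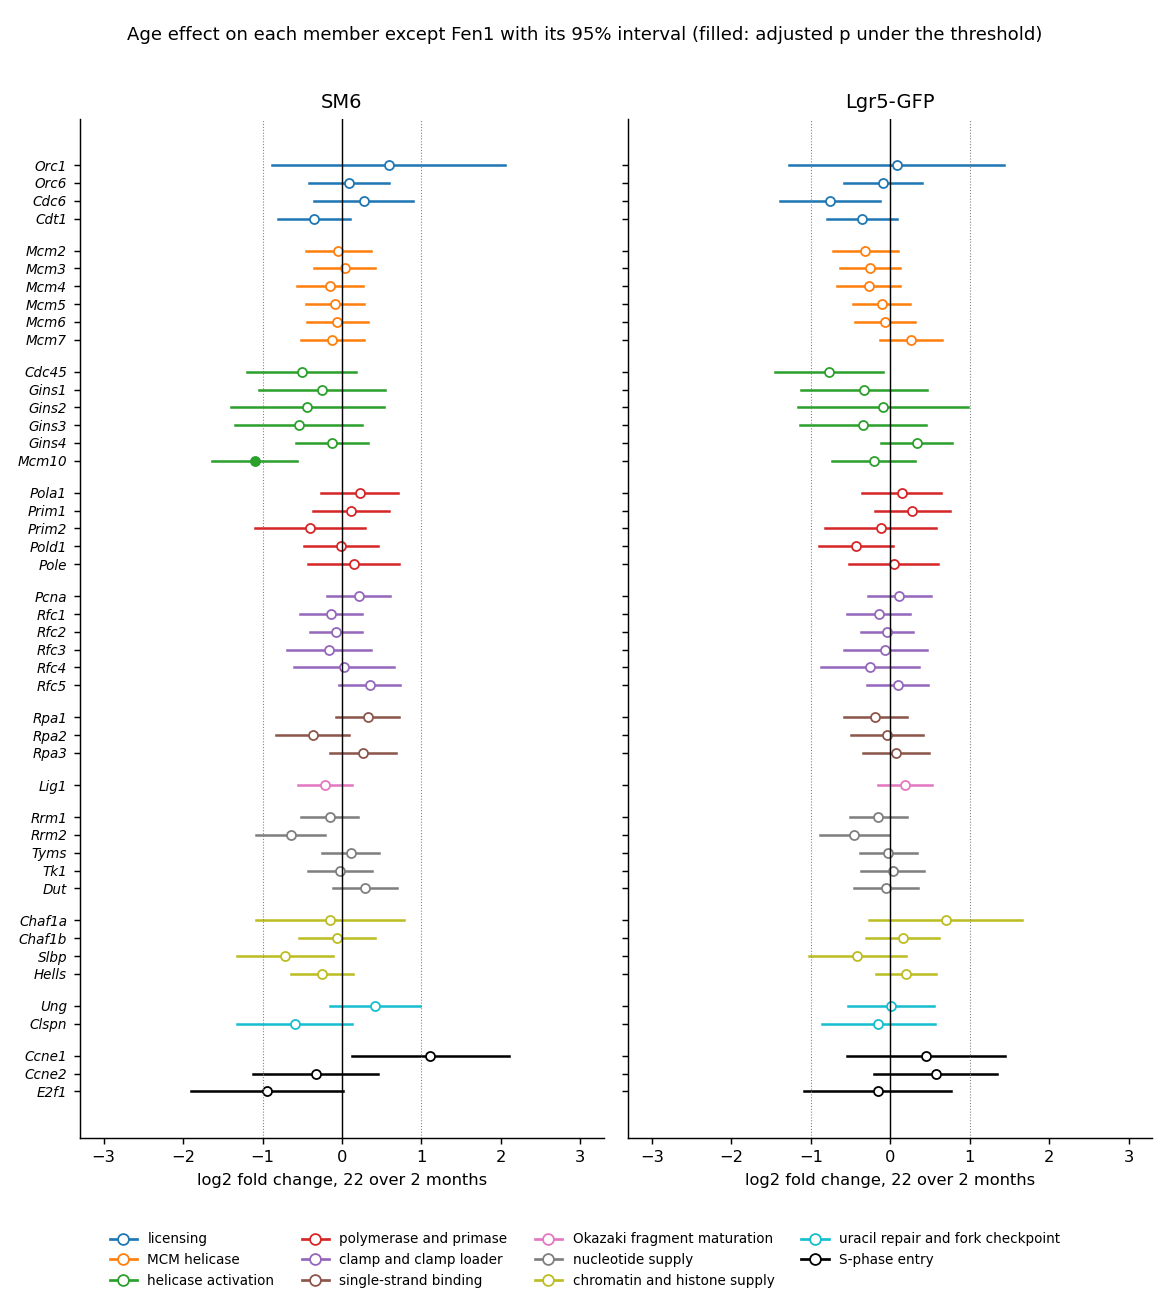
Age effect on each member but Fen1, which had too few counts (45 genes), in SM6 (left) and Lgr5-GFP ISCs (right). The x axis is the log2 fold change of 22 over 2 months from edgeR, lines are 95% intervals, colours are roles, filled points have an adjusted p under 0.05, and dotted lines mark a 2-fold change. Mcm10 in SM6 ISCs is the only filled point, and most intervals lie between the dotted lines and hold 0.

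The estimates of the members lay close to 0. Their median log2 fold change was -0.10 in SM6 ISCs (all genes -0.01), -0.07 in Lgr5-GFP ISCs (all genes -0.03) and -0.06 on average (all genes -0.03). The estimate was below 0 for 30 of the 46 members in SM6 ISCs (65.2%), 28 in Lgr5-GFP ISCs (60.9%) and 28 on average, against 50.7%, 53.6% and 53.2% of all genes. These figures hold the fitted estimate of Fen1, a gene with almost no counts, and without it the medians were -0.09, -0.07 and -0.06, with 29, 28 and 27 of 45 estimates below 0. The 95% interval of the log2 fold change excluded a 2-fold change in either direction for 31 members in SM6 ISCs, 34 in Lgr5-GFP ISCs and 39 on average. The median standard error of the members was 0.23 on the log2 scale in SM6 and Lgr5-GFP ISCs, and that of all genes was 0.35 and 0.34. The biological coefficient of variation between libraries had a median of 17.8% over the members and of 23% over all genes, and ran from 13% for Rfc2, a clamp loader subunit, to 45.1% for Fen1. The members therefore had smaller errors than the typical gene, and a change of 2-fold or more was outside the interval for most of them.

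**Figure D2:**
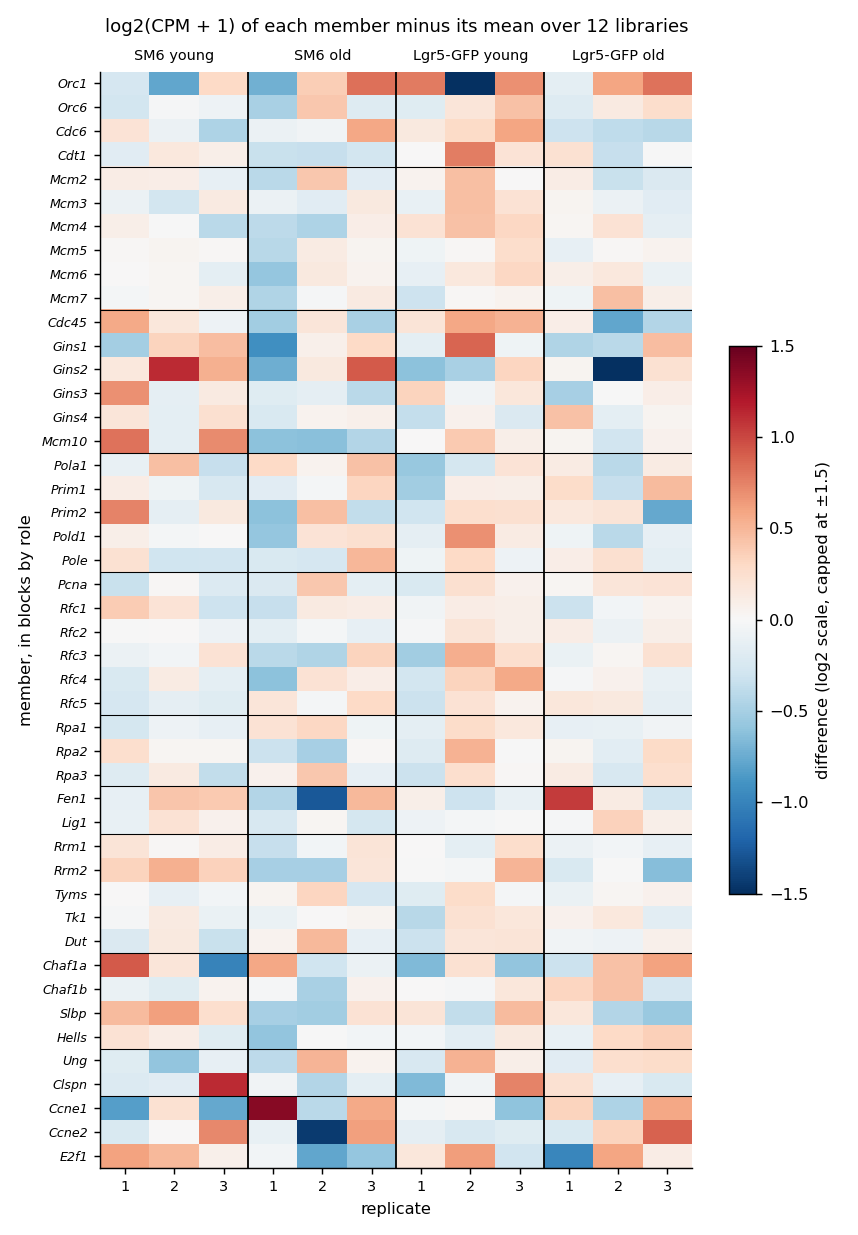
Level of every member in every library, as log2(CPM + 1) minus the mean of that gene over the 12 libraries (colour, capped at 1.5 in both directions). Rows are members in blocks by role, and columns are libraries by group and replicate. SM6 old replicate 1 is blue for most rows, with 8 of the 46 members above their own mean.

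The 46 levels summed to 3179 ± 105 CPM in young and 3021 ± 344 CPM in old SM6 ISCs (SD, n = 3), so that the old mean was 95% of the young one. In Lgr5-GFP ISCs they summed to 3298 ± 407 CPM and 3157 ± 37.6 CPM (SD, n = 3), or 95.7%. In both isolations the young and old libraries overlapped. SM6 old replicate 1 stood apart, with 2628 CPM in all and 8 of the 46 members above their own mean over the 12 libraries, while the other libraries had between 13 and 36. This library also had the highest summed level of enterocyte markers among SM6 libraries (9597 CPM). An old Lgr5-GFP library had more of these markers (12050 CPM), and the members summed to between 3115 and 3187 CPM in old Lgr5-GFP libraries. A link between these levels was not tested. Without SM6 old replicate 1 the median log2 fold change of the members in SM6 ISCs was 0.02 instead of -0.10, and the number of called members was 0.

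**Figure D3:**
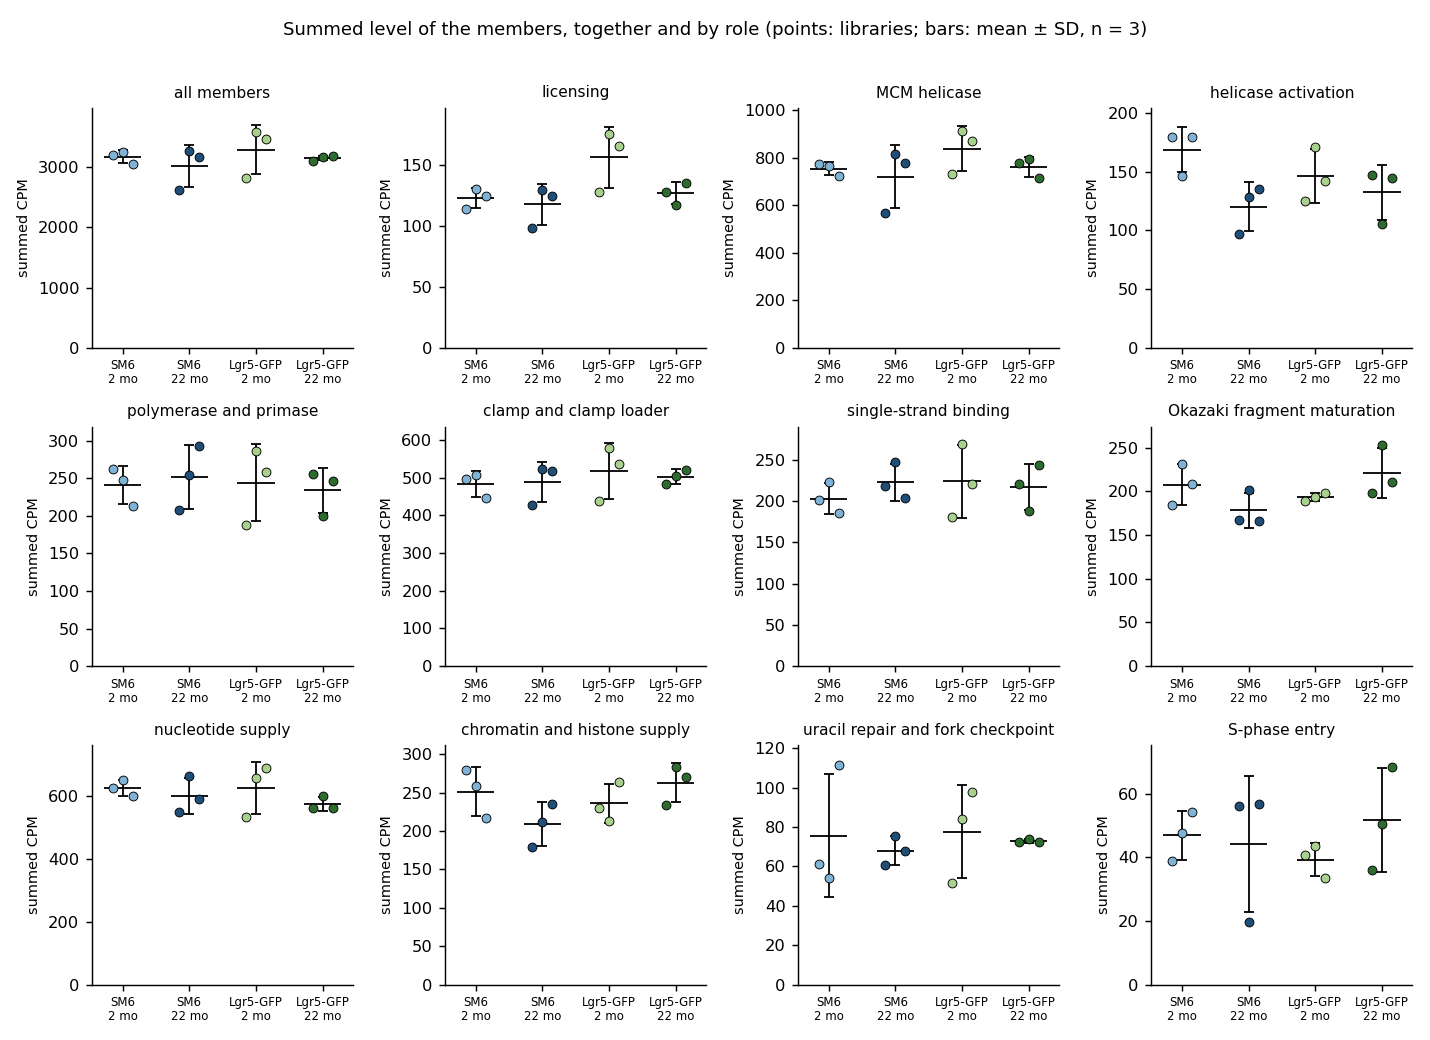
Summed CPM of all 46 members and of the members of each role (panels, y axes from 0) in the 4 groups. Points are libraries and bars show the mean and SD (n = 3). Young and old libraries overlap in the panel of all members, and for helicase activation all old SM6 libraries lie below all young ones.

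Libraries of young and old mice did not overlap for 9 members in SM6 ISCs, where 17.5% of all tested genes did not overlap. Of these Cdt1, Gins3, Mcm10, Rrm2, Rpa2, Slbp and E2f1 were lower and Rfc5 and Rpa1 were higher in old mice. In Lgr5-GFP ISCs this held for 3 members, Cdc6, Mcm4 and Cdc45, all lower in old mice, where the background was 14.6%. It held in both isolations and in the same direction for 0 members, against 2.03% of all genes. Mcm10, Rrm2 and the member with the highest CPM of each other role follow, and further members were chosen for mention after their values were seen.

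Licensing was represented by Orc1 and Orc6, subunits of the origin recognition complex, and by the loading factors Cdc6 and Cdt1, and 0 of the 4 were called in either isolation. Cdt1, which brings the MCM helicase to the origin, was at 52.2, 66.0 and 62.9 CPM in young and at 46.8, 46.2 and 48.7 CPM in old SM6 libraries. In Lgr5-GFP libraries it was at 59.2, 101 and 68.3 CPM in young and at 69.3, 46.4 and 58.8 CPM in old mice. All old SM6 libraries lay below the young ones, whereas the Lgr5-GFP libraries overlapped. The log2 fold change was -0.35 ± 0.22 (SE) in SM6 and -0.35 ± 0.21 (SE) in Lgr5-GFP ISCs, and neither passed the test (edgeR adjusted p = 0.548 and 0.639). Cdt1 shares its position with a predicted gene on the same strand, and how reads that fall on both genes were counted was not examined. Cdc6, the ATPase that works with Cdt1, was at 20.5, 22.7 and 28.2 CPM in young and at 14.7, 13.8 and 13.5 CPM in old Lgr5-GFP libraries, with no overlap. Its log2 fold change there was -0.76 ± 0.30 (SE, edgeR adjusted p = 0.391), while in SM6 ISCs it was 0.27 ± 0.30 (adjusted p = 0.785). The difference between the 2 age effects of Cdc6 was -1.03 ± 0.43 (SE) on the log2 scale and did not pass the test (edgeR adjusted p = 0.445). Orc1 had between 0 and 27 counts per library, which allowed no narrow interval.

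The MCM helicase, the ring of Mcm2 to Mcm7 that unwinds DNA at the fork, showed no called change. None of the 6 subunits passed the edgeR test, and their log2 fold changes lay between -0.15 and 0.04 in SM6 and between -0.31 and 0.26 in Lgr5-GFP ISCs. Mcm6 was at 226, 231 and 204 CPM in young and at 150, 249.8 and 235 CPM in old SM6 libraries. In Lgr5-GFP libraries it was at 208, 251 and 279 CPM in young and at 239.9, 253 and 211 CPM in old mice. The ages overlapped in both isolations, and the low value was that of SM6 old replicate 1. The log2 fold change of Mcm6 was -0.06 with a 95% interval from -0.44 to 0.32 in SM6 ISCs, and -0.07 with an interval from -0.44 to 0.31 in Lgr5-GFP ISCs. The summed level of the 6 subunits in old mice was 95.6% of the young mean in SM6 and 91% in Lgr5-GFP ISCs. Mcm4 alone of the 6 had non-overlapping ages in Lgr5-GFP ISCs, with a log2 fold change of -0.27 ± 0.19 (SE, edgeR adjusted p = 0.705).

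Helicase activation held the member that was called in SM6 ISCs. Mcm10 (ENSMUSG00000026669, chromosome 2, 4989714 to 5012791 on the minus strand in GENCODE, GRCm38), a protein that helps to switch the loaded helicase on and binds DNA polymerase alpha, had 103, 57 and 80 counts in young and 29, 33 and 32 counts in old SM6 libraries. These correspond to 62.5, 31.6 and 57.8 CPM in young and 22.6, 22.4 and 25.6 CPM in old mice. Every old library lay below every young one, and the young libraries differed from each other more than the old ones did. Mcm10 fell by 1.10 on the log2 scale (SE 0.26, 95% interval from -1.64 to -0.56, edgeR adjusted p = 0.0204). In Lgr5-GFP libraries Mcm10 was at 35.3, 46.3 and 37.2 CPM in young and at 36.0, 28.5 and 36.6 CPM in old mice. These libraries overlapped, and the log2 fold change was -0.21 ± 0.25 (SE, edgeR adjusted p = 0.856). The difference between the 2 age effects was 0.89 ± 0.36 (SE) on the log2 scale and did not pass the test (edgeR adjusted p = 0.437), so that a different response of the isolations was not shown. Averaged over both, the log2 fold change of Mcm10 was -0.65 ± 0.18 (SE, edgeR adjusted p = 0.0529). Mcm10 was no longer called in SM6 ISCs without SM6 young replicate 1 (adjusted p = 0.108), SM6 young replicate 3 (0.0914), SM6 old replicate 1 (0.104) or SM6 old replicate 2 (0.0985), nor with limma voom (0.0716), with log2 fold changes between -1.06 and -0.91. Over all 24 alternatives run its adjusted p ran from 0.0028 to 0.108.

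The other members of this group are Cdc45, which forms the active helicase with MCM and GINS, and the 4 GINS subunits. None of the 5 was called in either isolation, and the log2 fold change was below 0 for 6 of the 6 helicase activation genes in SM6 and for 5 of the 6 in Lgr5-GFP ISCs. Their summed level in SM6 ISCs went from 169 ± 19.1 CPM in young to 120 ± 20.9 CPM in old mice (SD, n = 3), 71.2% of the young mean, and the libraries did not overlap. In Lgr5-GFP ISCs it went from 146 ± 23.1 to 133 ± 23.3 CPM (SD, n = 3), and the libraries overlapped. Mcm10 made up much of the SM6 difference, since its mean level was 50.6 ± 16.7 CPM in young and 23.5 ± 1.77 CPM in old mice (SD, n = 3). Cdc45 had estimates below 0 in both isolations, with log2 fold changes of -0.51 ± 0.33 and -0.77 ± 0.33 (SE) and edgeR adjusted p of 0.578 and 0.429. Gins2 and Gins3 had under 20 counts in some libraries, and their standard errors reached 0.52 and 0.39 on the log2 scale.

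Of the polymerases, Pola1, Prim1 and Prim2 belong to the polymerase alpha and primase complex that starts each strand, and Pold1 and Pole are the catalytic subunits that extend the lagging and leading strands. None of the 5 was called by edgeR, and log2 fold changes ran from -0.40 to 0.22 in SM6 and from -0.43 to 0.28 in Lgr5-GFP ISCs. Pold1 was at 77.1, 71.0 and 73.0 CPM in young and at 48.3, 84.2 and 86.3 CPM in old SM6 libraries. In Lgr5-GFP libraries it was at 65.8, 117 and 79.5 CPM in young and at 69.3, 54.5 and 66.6 CPM in old mice. Both pairs of groups overlapped. The log2 fold change of Pold1 was -0.01 ± 0.23 (SE) in SM6 and -0.43 ± 0.23 (SE, edgeR adjusted p = 0.558) in Lgr5-GFP ISCs.

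The clamp Pcna, which tethers polymerases to DNA, and the 5 subunits Rfc1 to Rfc5 of the loader that places it showed no called change. Their summed level in old mice was 101% of the young mean in SM6 and 97.1% in Lgr5-GFP ISCs, and 0 of the 6 were called. Rfc1 was at 178, 157 and 109.8 CPM in young and at 107, 150.0 and 147 CPM in old SM6 libraries. In Lgr5-GFP libraries it was at 132, 147 and 145 CPM in young and at 109, 133 and 142 CPM in old mice. The groups overlapped, and the log2 fold change was -0.14 ± 0.19 (SE) in SM6 and -0.15 ± 0.19 (SE) in Lgr5-GFP ISCs (edgeR adjusted p = 0.831 and 0.870). Pcna had a log2 fold change of 0.21 ± 0.19 (SE) in SM6 and 0.11 ± 0.19 (SE) in Lgr5-GFP ISCs, and Rfc5, whose old SM6 libraries all lay above the young ones, had 0.35 ± 0.19 (SE, edgeR adjusted p = 0.445) in SM6 ISCs.

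The single-strand binding complex of Rpa1, Rpa2 and Rpa3 coats unwound DNA. In SM6 ISCs the estimates of its subunits pointed in different directions, with log2 fold changes of 0.32 ± 0.19 for Rpa1, -0.37 ± 0.22 for Rpa2 and 0.26 ± 0.20 for Rpa3 (SE), and none passed the test (edgeR adjusted p between 0.518 and 0.652). Rpa3 was at 93.4, 117 and 82.4 CPM in young and at 112, 142 and 98.3 CPM in old SM6 libraries. In Lgr5-GFP libraries Rpa3 was at 85.7, 128 and 108 CPM in young and at 117, 90.3 and 127 CPM in old mice. The ages overlapped in each isolation.

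Lagging strand pieces, the Okazaki fragments, are trimmed by Fen1 and sealed by Lig1. Lig1 was at 183, 229 and 206 CPM in young and at 167, 202 and 164 CPM in old SM6 libraries. In Lgr5-GFP libraries Lig1 was at 188, 193 and 197 CPM in young and at 195, 252 and 210.2 CPM in old mice. The groups overlapped, and the log2 fold change of Lig1 was -0.22 ± 0.16 (SE) in SM6 and 0.18 ± 0.16 (SE) in Lgr5-GFP ISCs (edgeR adjusted p = 0.649 and 0.786). Fen1 had between 0 and 6 counts in every library, at or near the floor of 3 counts that a count of 0 allows, and its fold change is not shown. In the annotation Fen1 overlaps Tmem258 and an antisense gene on the opposite strand. Reads shared with these genes were not examined.

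Deoxynucleotides are supplied by ribonucleotide reductase (Rrm1 and its S-phase subunit Rrm2), by thymidylate synthase (Tyms), by thymidine kinase (Tk1) and by Dut, which removes dUTP. Rrm2 (ENSMUSG00000020649, chromosome 12, 24708241 to 24714146 on the plus strand) was the member called on average over both isolations. It was at 135, 155 and 136 CPM in young and at 75.6, 75.3 and 121 CPM in old SM6 libraries. In Lgr5-GFP libraries Rrm2 was at 106, 105 and 153 CPM in young and at 91.3, 106 and 68.5 CPM in old mice. The old SM6 libraries all lay below the young ones, with SM6 old replicate 3 nearest to them, and 1 old Lgr5-GFP library reached the level of the young ones. Averaged over both isolations Rrm2 fell by 0.55 on the log2 scale (SE 0.15, 95% interval from -0.86 to -0.24, edgeR adjusted p = 0.047). Within each isolation the log2 fold change was -0.65 ± 0.21 (SE, edgeR adjusted p = 0.127) in SM6 and -0.45 ± 0.21 (SE, adjusted p = 0.489) in Lgr5-GFP ISCs, and the difference between them was 0.19 ± 0.30 (SE, adjusted p = 0.902). The average call of Rrm2 in edgeR was lost without any one of SM6 young replicates 1 (adjusted p = 0.0677), 2 (0.134) and 3 (0.0761), SM6 old replicates 1 (0.168) and 2 (0.146), Lgr5-GFP young replicate 3 (0.17) and Lgr5-GFP old replicates 1 (0.0938) and 3 (0.138), while its log2 fold change stayed between -0.72 and -0.44 under all 23 alternatives run. The scaling also decided this call, with an adjusted p of 0.0596 on DESeq2 size factors, 0.0774 on library totals alone and 0.0563 when Paneth and defensin genes were left out of the scaling.

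The partner subunit Rrm1 had a log2 fold change of -0.16 ± 0.18 (SE) in SM6 and -0.15 ± 0.18 (SE) in Lgr5-GFP ISCs. Tyms had 0.11 ± 0.17 and -0.03 ± 0.17, Tk1 had -0.03 ± 0.20 and 0.03 ± 0.19, and Dut had 0.29 ± 0.20 and -0.05 ± 0.20 (SE). None of these 4 passed the test (edgeR adjusted p of 0.599 or above). With no test that compared Rrm2 with the other members of its group, a response particular to it was not shown.

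**Figure D4:**
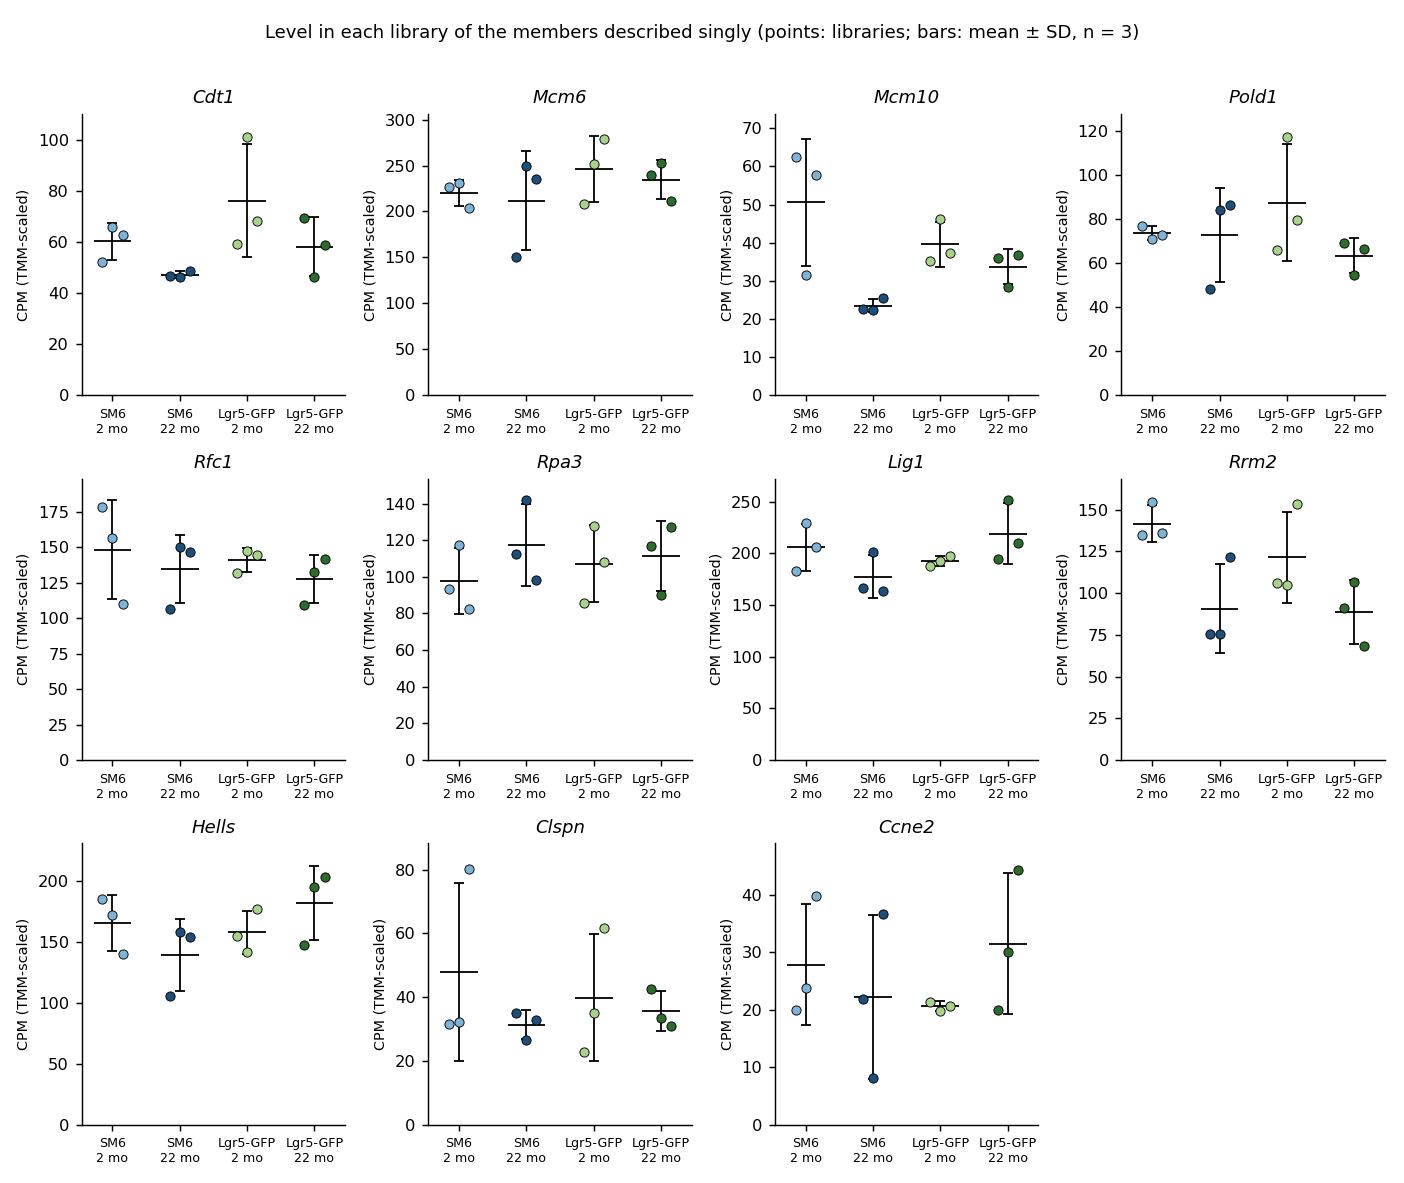
Level in CPM (y axes from 0) of the members described singly. Points are the 3 libraries of each group and bars show the mean and SD (n = 3). Old SM6 libraries lie below young ones for Mcm10, Rrm2 and Cdt1, and the ages overlap in the other panels and in every Lgr5-GFP pair.

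Chromatin and histone supply was represented by Chaf1a and Chaf1b, subunits of the assembly factor that deposits new histones behind the fork, by Slbp, which binds histone messenger RNAs, and by the chromatin remodeller Hells. Hells was at 185, 172 and 140.2 CPM in young and at 105, 158 and 154 CPM in old SM6 libraries. In Lgr5-GFP libraries Hells was at 155, 142 and 177 CPM in young and at 147, 195 and 203 CPM in old mice. The ages overlapped, with log2 fold changes of -0.25 ± 0.19 (SE) and 0.20 ± 0.19 (SE) and edgeR adjusted p of 0.639 and 0.801. Slbp had a log2 fold change of -0.72 ± 0.29 (SE) in SM6 and -0.41 ± 0.29 (SE) in Lgr5-GFP ISCs and of -0.56 ± 0.21 (SE) on average, none of which passed the test (edgeR adjusted p = 0.267, 0.709 and 0.199).

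Ung, which removes uracil from DNA, and Clspn, the claspin adaptor of the fork checkpoint, showed no called change. Clspn was at 31.6, 32.2 and 80.2 CPM in young and at 35.1, 26.5 and 32.8 CPM in old SM6 libraries. In Lgr5-GFP libraries Clspn was at 22.7, 35.0 and 61.7 CPM in young and at 42.6, 33.3 and 30.9 CPM in old mice. Replicate 3 was the high library in both young groups and the groups overlapped, with log2 fold changes of -0.59 ± 0.35 (SE) and -0.15 ± 0.35 (SE) and edgeR adjusted p of 0.514 and 0.949. With 1 library left out the log2 fold change of Clspn in SM6 ISCs ran from -0.82 to -0.02. For Ung the log2 fold change was 0.42 ± 0.27 (SE) in SM6 and 0.01 ± 0.26 (SE) in Lgr5-GFP ISCs.

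S phase entry was represented by the E type cyclins Ccne1 and Ccne2, which activate Cdk2, and by the transcription factor E2f1. Ccne2 was at 20.0, 23.8 and 39.8 CPM in young and at 21.8, 8.14 and 36.8 CPM in old SM6 libraries. In Lgr5-GFP libraries Ccne2 was at 21.4, 19.8 and 20.7 CPM in young and at 20.0, 30.1 and 44.4 CPM in old mice. The ages overlapped in each isolation, with log2 fold changes of -0.33 ± 0.38 (SE) and 0.57 ± 0.37 (SE) and edgeR adjusted p of 0.798 and 0.671. Ccne1 had the highest estimate of all members in SM6 ISCs, a log2 fold change of 1.11 ± 0.48 (SE), which did not pass the test (edgeR adjusted p = 0.3). E2f1 had -0.94 ± 0.46 (SE, edgeR adjusted p = 0.392) in SM6 and -0.16 ± 0.45 (SE, adjusted p = 0.958) in Lgr5-GFP ISCs.

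The next question was whether the age effect differs between the isolations. In the test of the difference, edgeR called 0 of the 46 members, against 0.658% of all genes. At an unadjusted p under 0.05 there were 2 members, Cdc6 and Mcm10 (4.35%, against 9.43% of all genes), and DESeq2, limma voom and the edgeR likelihood ratio test also called 0. The interval of the difference excluded a 2-fold change for 26 of the 46 members. Both isolations were also compared at each age. Of the 46 members edgeR called 0 at 2 months, where 0.0898% of all genes were called, and 0 at 22 months, where the share was 0.718%. At an unadjusted p under 0.05 there was 1 member at 2 months, Mcm4, which had a log2 fold change of 0.41 ± 0.19 (SE, Lgr5-GFP over SM6), against 7.47% of all genes, and there were 0 at 22 months, against 9.4%. DESeq2, limma voom and the likelihood ratio test called 0 at both ages. Intervals excluded a 2-fold difference between the isolations for 38 members at 2 months and 37 at 22 months.

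A further 95 replication genes were listed by function, of which 92 were tested. In SM6 ISCs 3 were called, all lower in old mice, in Lgr5-GFP ISCs 1 was called, and on average 4 were, all lower, where 2.42%, 0.471% and 2.66% of all tested genes were called. Their median log2 fold change was -0.11 in SM6 ISCs and -0.02 in Lgr5-GFP ISCs, beside -0.01 and -0.03 for all genes. No called gene belonged to the 10 listed for chromatin and methylation at the fork or the 10 listed for further nucleotide supply. Among the called genes were regulators of the G1 to S transition. Cdkn1b, the p27 inhibitor of cyclin E and Cdk2, was at 405, 446 and 484 CPM in young and at 76.4, 132 and 154 CPM in old SM6 libraries. In Lgr5-GFP libraries Cdkn1b was at 283, 253 and 329 CPM in young and at 139, 259 and 122 CPM in old mice. The SM6 groups lay far apart, while 1 old Lgr5-GFP library reached the young range. Cdkn1b fell by 1.88 on the log2 scale in SM6 ISCs (SE 0.25, edgeR adjusted p = 0.000199), and its log2 fold change in Lgr5-GFP ISCs was -0.74 ± 0.24 (SE, adjusted p = 0.237). In Lgr5-GFP ISCs Cdkn1b was called by edgeR without Lgr5-GFP old replicate 2 (log2 fold change -1.15, adjusted p = 0.0169) and with no filter beyond 1 count (adjusted p = 0.00513).

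Cdk6, a kinase that works with D type cyclins in G1 phase, was between 1006 and 1269 CPM in young and between 451 and 674 CPM in old SM6 libraries, and fell by 1.05 on the log2 scale (SE 0.21, edgeR adjusted p = 0.00445). The call was kept under all 24 alternatives run, but without SM6 old replicate 1 only just (log2 fold change -0.97, edgeR adjusted p of 0.05 after rounding). Its log2 fold change in Lgr5-GFP ISCs was -0.48 ± 0.20 (SE, edgeR adjusted p = 0.435). Wdr76, a WD repeat protein listed here with fork repair genes, fell by 1.97 in SM6 ISCs (SE 0.24, edgeR adjusted p = 0.000115) and had -0.76 ± 0.23 (SE, adjusted p = 0.193) in Lgr5-GFP ISCs. There Wdr76 ran from -1.04 to -0.43 with 1 library left out, and edgeR called it without Lgr5-GFP old replicate 2 (-1.04, adjusted p = 0.0494) and with no filter beyond 1 count (adjusted p = 0.0264). Mcmbp, a binding protein of the MCM subunits, fell by 0.48 on average over both isolations (SE 0.13, edgeR adjusted p = 0.0466), a call that 10 of the 12 fits with 1 library left out did not keep (highest adjusted p = 0.171, without SM6 old replicate 1). The Mcmbp call in edgeR was also lost on DESeq2 size factors (adjusted p = 0.0601), on library totals alone (0.117), without Paneth and defensin genes in the scaling (0.057) and with the defensin share in the model (0.0539), while its log2 fold change lay between -0.60 and -0.41 under all 23 alternatives run. In SM6 ISCs Mcmbp had -0.66 ± 0.18 (SE, edgeR adjusted p = 0.0556) and was called under 11 of the 24 alternatives run, DESeq2 (0.0175) and limma voom (0.00646) among them. The difference between the age effects was not called for Cdkn1b (1.14 ± 0.34 on the log2 scale, SE, edgeR adjusted p = 0.186), Cdk6 (0.58 ± 0.29, adjusted p = 0.541) or Wdr76 (1.22 ± 0.33, adjusted p = 0.127).

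Cdkn1a, the p21 inhibitor that p53 induces and that blocks both cyclin-dependent kinases and Pcna, behaved in another way. It was at 46.7, 36.0 and 48.4 CPM in young and at 81.0, 57.0 and 62.3 CPM in old SM6 libraries. In Lgr5-GFP libraries Cdkn1a was at 71.8, 41.6 and 47.2 CPM in young and at 19.3, 28.5 and 22.2 CPM in old mice. Old libraries lay above all young ones in SM6 and below all young ones in Lgr5-GFP ISCs. Cdkn1a fell by 1.23 on the log2 scale in Lgr5-GFP ISCs (SE 0.25, edgeR adjusted p = 0.0266), while its log2 fold change in SM6 ISCs was 0.61 ± 0.23 (SE, adjusted p = 0.22). The difference between the 2 age effects was -1.85 ± 0.35 (SE) and passed the test (edgeR adjusted p = 0.0103). The Lgr5-GFP call in edgeR was lost without Lgr5-GFP young replicate 1 (adjusted p = 0.187) and Lgr5-GFP old replicates 1 (0.156) and 3 (0.0926), on library totals alone (0.0727), with the defensin share in the model (0.223) and without both libraries of highest defensin share (0.147, chosen after seeing the data), while its log2 fold change lay between -1.40 and -0.94 under all 24 alternatives run. The difference kept its call in each fit with 1 library left out. The summed Paneth cell markers overlapped between the ages in SM6 libraries, where old replicate 3 was highest, and were lower in all old than in all young Lgr5-GFP libraries. In the same test of the difference edgeR called 12 of 14 Paneth, 4 of 10 goblet, 6 of 14 enterocyte and 1 of 15 enteroendocrine markers, all in the direction of Cdkn1a, and 0 of 17 stem cell markers. The summed goblet cell and enterocyte markers, like Cdkn1a, were higher in all old than in all young SM6 libraries, whereas their Lgr5-GFP libraries overlapped. In Lgr5-GFP ISCs the mean sum of goblet markers went from 10000 CPM in young to 5249 CPM in old mice. That of enterocyte markers went from 2602 to 5754 CPM, against the direction of Cdkn1a. The part of these markers in the Cdkn1a result was not tested beyond the defensin share. With the defensin share of each library as a covariate the difference for Cdkn1a was -1.68 (edgeR adjusted p = 0.229).

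**Figure D5:**
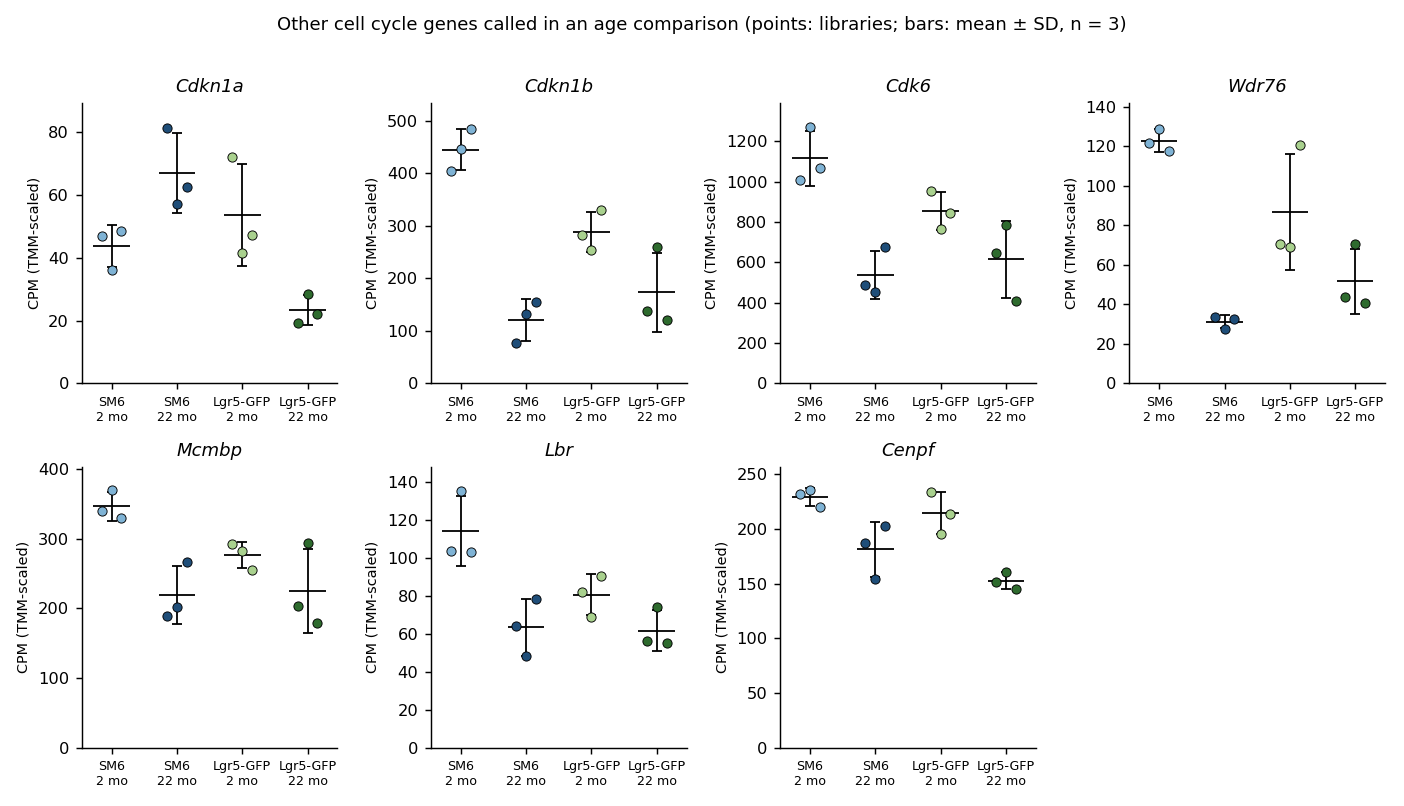
Level in CPM (y axes from 0) of the other cell cycle genes called in an age comparison. Points are the 3 libraries of each group and bars show the mean and SD (n = 3). For every gene shown but Cdkn1a the old SM6 libraries lie below all young ones. Cdkn1a is higher in old SM6 and lower in old Lgr5-GFP libraries, and Cenpf is also lower in all old Lgr5-GFP libraries.

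A list of 51 genes of G2 phase and mitosis was also examined, and all were tested. In SM6 ISCs 1 was called (background 2.42%), Lbr, the lamin B receptor, which fell by 0.85 on the log2 scale (SE 0.20, edgeR adjusted p = 0.0204). In Lgr5-GFP ISCs edgeR called 0 (background 0.471%), with 4 at an unadjusted p under 0.05 (7.84%, against 9.79% of all genes). In SM6 ISCs 7 were at an unadjusted p under 0.05 (13.7%, against 13.1%), and on average 10 were (19.6%, against 12.8%). Averaged over both isolations 2 were called (background 2.66%), Lbr and the kinetochore protein Cenpf, which fell by 0.63 (SE 0.14, edgeR adjusted p = 0.015) and by 0.42 (SE 0.11, adjusted p = 0.0437). The edgeR call of Lbr in SM6 ISCs was lost without SM6 young replicate 2 (adjusted p = 0.161) and SM6 old replicates 1 (0.0943) and 2 (0.152), its average call without SM6 young replicate 2 (0.0633), SM6 old replicate 2 (0.0589) and Lgr5-GFP old replicate 1 (0.0524), and that of Cenpf in 10 of the 12 fits with 1 library left out (highest adjusted p = 0.135, without SM6 old replicate 2). The Cenpf call in edgeR was also lost on DESeq2 size factors (adjusted p = 0.0584), on library totals alone (0.181), without Paneth and defensin genes in the scaling (0.0575) and with the defensin share in the model (0.0647), while its log2 fold change lay between -0.46 and -0.36 under all 23 alternatives run. Over these 51 genes the log2 fold changes centred on a median of -0.25 (SM6) and -0.15 (Lgr5-GFP), beside -0.01 and -0.03 for all genes, and the estimate was below 0 for 41 (80.4%) and 34 (66.7%) of the 51, and on average for 44 (86.3%), against 50.7%, 53.6% and 53.2% of all genes. No test compared this list with the 46 replication genes.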

How the data were processed

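RNA from sorted ISCs of 1 mouse per library was sequenced as 3′ libraries. Per the study's methods, the authors aligned reads to GRCm38 with STAR 2.4.2a and deposited raw counts per gene, made with featureCounts over exons of a GENCODE annotation. Molecular identifiers were added, but whether reads were collapsed on them and which strand setting was used are not given in the sources used here, so counts may include PCR copies.

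The deposited counts were compared in R 4.3.3 with the edgeR 4.0.16 quasi-likelihood test on all 12 libraries, after TMM scaling. Genes with more than 5 reads and at least 1 CPM in at least 1 library were kept, which left 13368 of 54232. Adjusted p-values are Benjamini-Hochberg values over these. Each standard error is the log2 fold change divided by the square root of its F statistic, so that it shares the moderated spread. Each replicate is 1 mouse. Intervals and floors cover counting error and the spread between these libraries. Positions come from GENCODE on GRCm38 and promoters from RefSeq. Alternatives were DESeq2 1.42.0, limma 3.58.1 (voom with quality weights), the likelihood ratio test, other scalings and filters, the defensin share as covariate, a replicate block, fits of only the groups compared, and fits without 1 library. The procedure was tested on simulated data. The members and gene lists were chosen with earlier results of these data known. The members described singly are those called, and for each other role the member with the highest mean CPM.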

Additional observations from a re-analysis of the deposited data

Results flagged for a closer look

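The age effect on Cdkn1a differed between the isolations, with a difference of -1.85 on the log2 scale (Lgr5-GFP minus SM6) that passed the edgeR test of the difference itself (adjusted p = 0.0103). The old libraries were above all young ones in SM6 and below all young ones in Lgr5-GFP ISCs, in 3 of 3 mice each. Over the 12 fits with 1 library left out the difference ran from -2.02 to -1.56, with edgeR adjusted p from 0.00621 to 0.0489, and once each library's defensin share entered as covariate it was -1.68 (adjusted p = 0.229). In this comparison edgeR also called 12 of 14 Paneth, 4 of 10 goblet and 6 of 14 enterocyte markers in the same direction. Cdkn1a is not among the 46 genes, none of which was called in this comparison.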

How the results depend on the processing

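The counts of called members were small and moved with the settings. In SM6 ISCs 2 members were called (Mcm10 and Rrm2) on library totals alone, with no filter beyond 1 count, and without both libraries of highest defensin share, an alternative chosen after seeing the data. With 1 library left out the count ran from 0 to 2, being 0 without SM6 young replicate 1 or 3 or SM6 old replicate 1 or 2, and 2 without SM6 old replicate 3. With limma voom the 1 called member in SM6 ISCs was Rrm2 (adjusted p = 0.0221), not Mcm10. On average over both isolations 0 members were called on DESeq2 size factors, on library totals alone and without Paneth and defensin genes in the scaling, 2 with no filter, with filterByExpr and with the likelihood ratio test, and 0 to 1 with 1 library left out. Without SM6 young replicate 2 the 1 called on average was Mcm10 (edgeR adjusted p = 0.0128), not Rrm2. For Lgr5-GFP ISCs, the difference of age effects and both isolation comparisons the count was 0 under all alternatives run. The median log2 fold change of the members crossed 0 in fits with 1 library left out, from -0.15 to 0.02 in SM6 ISCs and from -0.18 to 0.01 in Lgr5-GFP ISCs, and on average from -0.13 to 0.01. Library totals alone moved the median of all genes to -0.16 in SM6 and 0.16 in Lgr5-GFP ISCs, and that of the members to -0.27 and 0.10. The cause was not tested.

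Signs of members described singly turned 40 times among 827 values, none of them called. Pold1 in SM6 ISCs was 0.00452 with DESeq2, 0.00492 on DESeq2 size factors and 0.00731 without Paneth and defensin genes in the scaling. With the defensin share as covariate Clspn was 0.0456 in SM6 ISCs, Rfc1 was 0.107 and Rpa3 was -0.0368 in Lgr5-GFP ISCs, and Hells was 0.000737 on average. On library totals alone Mcm6 was 0.109, Rfc1 0.0409 and Clspn 0.00113 in Lgr5-GFP ISCs, and Lig1 was 0.00537 on average. With voom Clspn was 0.0927 in Lgr5-GFP ISCs and Ccne2 was -0.179 on average. Lig1 on average was 0.000133 with DESeq2 and 0.000637 without Paneth and defensin genes in the scaling. Without both libraries of highest defensin share Rpa3 was -0.0693 in Lgr5-GFP ISCs, and Lig1 was 0.0101 and Ccne2 -0.142 on average. With 1 library left out, SM6 values ran from -0.194 to 0.156 for Mcm6, -0.135 to 0.228 for Pold1, -0.315 to 0.0167 for Rfc1 and -0.895 to 0.0846 for Ccne2. Lgr5-GFP values ran from -0.178 to 0.0393 for Mcm6, -0.074 to 0.204 for Rpa3 and -0.47 to 0.378 for Clspn. Average values ran from -0.13 to 0.0459 for Mcm6, -0.0715 to 0.0266 for Lig1, -0.0802 to 0.0657 for Hells and -0.16 to 0.329 for Ccne2.

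Replicate numbers did not pair the samples: deviations of same-numbered libraries correlated between -0.0737 and 0.0482 over 18 pairs, and 2 of the 12 libraries correlated best with their own number in each other group. A fit with a replicate block left the counts of called members at 1 in SM6 ISCs, 0 in Lgr5-GFP ISCs and 1 on average (Mcm10 edgeR adjusted p = 0.024, Rrm2 0.0494). Of the named genes outside the members it changed the average call of Cenpf (adjusted p = 0.06). Depth limits the 14 members with under 20 counts in some library.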
